A study of Homo sapiens with 8 samples.

Results

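The 47 genes described here encode actins, myosin chains, actin-binding proteins and SRF, the transcription factor that controls many of them. They were chosen by name, with earlier results of these data known. All 47 had a row in both deposited tables, of 19472 genes in the crowding table and 19551 in the ETV4 KD table. They were divided by isoform type into 10 muscle-type genes, 16 non-muscle genes, 8 genes that give both muscle and non-muscle products (mixed) and 13 general genes that have no such division. All 47 had enough reads to be tested in both experiments, and no member was removed by the filter on low counts.

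Poly-A RNA of H9, an established line of human embryonic stem cells (hESCs) grown on Matrigel in mTeSR1 or TeSR-E8 medium, was sequenced in 8 libraries. In the crowding experiment, 2 libraries labelled small (cells of low density) were compared with 2 labelled crowded (cells packed on small islands of Matrigel), with no genetic change in either. In the ETV4 KD experiment, 2 libraries labelled Ctrl (a control hairpin) were compared with 2 labelled ETV4 KD, in which ETV4, an ETS-family transcription factor, was knocked down by RNA interference. The comparisons ask how the genes of the contractile cytoskeleton respond to cell density and to loss of a factor whose own level falls with density. All samples are 1 cell line. The labels do not say which hairpin was used, or whether both ETV4 KD libraries had the same one. Separate cultures are not stated, so p-values measure the spread between these libraries only. Read counts on genes totalled 50359703 to 62410168 per library, and genes were tested on counts with edgeR and Benjamini-Hochberg adjustment over 17672 genes (crowding) and 17879 genes (ETV4 KD). FPKM is the deposited value, scaled by the authors to transcript length and to mapped fragments, and the tables were normalized separately. "Passed" means an adjusted p below 0.05, and a differentially expressed gene (DEG) also has an absolute log2 fold change over 0.5.

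Actin filaments and non-muscle myosin II generate tension at cell junctions and at adhesions to the matrix. SRF binds a motif called the CArG box and, with cofactors of the myocardin family (MRTFA, MRTFB and MYOCD), drives transcription of actins, calponins, tropomyosins and related genes. Free actin monomers hold MRTFs in the cytoplasm, so the state of the cytoskeleton feeds back on its own genes. Muscle-type isoforms such as ACTA1, ACTC1 and TAGLN are best known from muscle but are transcribed at low levels in many cells, stem cells included.

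The CArG box was searched as an exact match (either strand, since the motif reads as a CArG box on both) in RefSeq promoter windows of build GRCh38.p14, each 250 bases before and 50 bases after a transcription start. Of the 47 members, 43 had a window, and MYL9, ACTB, PFN2 and TAGLN had no entry. At least 1 box lay in a window of 14 of the 43 members (32.6%), against 438 of 27305 genes in the table (1.60%). Counted by window, 16 of 83 member windows (19.3%) and 454 of 35116 windows overall (1.29%) held one. The 14 genes are ACTA1, ACTC1, ACTG1, ACTG2, ACTN1, CNN2, FHL1, FHL2, FLNA, MYL7, MYLK, ROCK2, SRF and TPM4. The members were picked as genes of SRF type, so their share is a description of the list.

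The stretches below are read 5′ to 3′ on the strand of the gene, with the CArG box in capitals; they are shown for members whose changes are described next. They include muscle-type genes that fell in crowded hESCs (ACTA1, ACTC1, ACTG2, MYL7), non-muscle genes that fell (CNN2, FLNA, ACTG1), SRF itself, and both members with a box that rose (FHL1, MYLK).
ACTA1, chr1:229434162-229434211, minus strand: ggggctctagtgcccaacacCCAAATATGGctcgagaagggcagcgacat
ACTC1, chr15:34795629-34795678, minus strand: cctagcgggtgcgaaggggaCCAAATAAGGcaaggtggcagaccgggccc
ACTG2, chr2:73892878-73892927, plus strand: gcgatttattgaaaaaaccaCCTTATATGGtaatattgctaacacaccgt
MYL7, chr7:44141364-44141413, minus strand: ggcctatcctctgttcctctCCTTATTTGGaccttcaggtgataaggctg
CNN2, chr19:1026499-1026548, plus strand: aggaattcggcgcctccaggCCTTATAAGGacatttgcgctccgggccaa
FLNA, chrX:154374699-154374748, minus strand: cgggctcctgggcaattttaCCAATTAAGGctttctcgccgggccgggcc
ACTG1, chr17:81512864-81512913, minus strand: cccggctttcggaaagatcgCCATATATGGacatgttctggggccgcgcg
SRF, chr6:43171219-43171268, plus strand: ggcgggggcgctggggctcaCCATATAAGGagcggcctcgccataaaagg
FHL1, chrX:136196901-136196950, plus strand: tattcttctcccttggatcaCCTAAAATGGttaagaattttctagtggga
MYLK, chr3:123620613-123620662, minus strand: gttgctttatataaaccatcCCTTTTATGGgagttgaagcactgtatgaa
The first base of the box lay 97 bases before the start in ACTA1, 109 in ACTC1, 110 in ACTG2, 61 in MYL7, 89 in CNN2 and 94 in FLNA and ACTG1. In ACTG2 and SRF a further box lay nearer the start, at 73 and 10 bases. That of SRF ends the stretch shown above and is in lower case there. The 14 members with a box fell by 0.48 on the log2 scale at the median in crowded hESCs, and 5 of them were downregulated DEGs. For the 29 members with a window and no exact match the median was -0.36, with 10 downregulated DEGs. Members of both kinds fell.

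ETV4 was checked first, since it was the gene targeted. It was measured at 90.8 and 95.1 FPKM in the Ctrl libraries and at 45.6 and 40.9 FPKM in the ETV4 KD libraries (92.9 ± 3.06 against 43.3 ± 3.32, mean ± SD, n = 2 each), a log2 fold change of -1.15 ± 0.07 (SE, adjusted p = 1.60e-04). In the crowding experiment it stood at 73.2 and 72.6 FPKM in the small libraries and 54.2 and 53.9 FPKM in the crowded libraries (log2 fold change -0.49 ± 0.06, adjusted p = 9.42e-07). The libraries did not overlap in either experiment. The cells expressed pluripotent markers in every library: POU5F1 ranged from 1020 to 1400 FPKM, and the summed level of 10 such markers was 3480 to 3730 FPKM in the crowding experiment and 2960 to 3160 FPKM in the ETV4 KD experiment. The sum covers unequal changes: in ETV4 KD hESCs DNMT3B went from 354 and 359 FPKM to 212 and 192 FPKM (log2 fold change -0.82 ± 0.07) and TDGF1 from 333 and 340 FPKM to 195 and 184 FPKM (-0.82 ± 0.07), both downregulated DEGs, and LIN28A from 344 and 349 FPKM to 504 and 480 FPKM (0.51 ± 0.06), an upregulated DEG. In crowded hESCs 0 of the 10 were DEGs, but 3 passed lower and 4 passed higher. NANOG (-0.46 ± 0.06) was among the lower and SOX2 (0.41 ± 0.05) among the higher. Markers of mesendoderm and neuroectoderm that were measured had means below 1 FPKM, and not all could be tested. In the crowding experiment 3 mesendoderm and 4 neuroectoderm markers were tested. At these levels FOXA2 (-2.85 ± 0.50) and LHX2 (-1.55 ± 0.54) were downregulated DEGs and SOX1 (2.27 ± 0.61) an upregulated DEG in crowded hESCs. In the ETV4 KD experiment 1 mesendoderm and 4 neuroectoderm markers were tested, and 0 were DEGs.

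Most of the 47 genes were lower in crowded hESCs, and the changes were largest among the muscle-type isoforms. Of the 47 members, 37 passed lower, against 20.3% of all genes tested, and 3 passed higher, against 19.4%. Downregulated DEGs numbered 17 (36.2% of the members; 5.47% of all genes tested), and upregulated DEGs numbered 0 (10.7% of all genes tested). The median log2 fold change of the members was -0.41, with 42 of 47 below 0, and that of all genes tested was 0.00. Since the list was chosen with earlier results known, the shares here and below describe it and are not a test. The FPKM of the 47 genes summed to 10100 and 9960 in the small libraries and to 8160 and 7590 in the crowded libraries, and their share of all counts went from 2.17% in both small libraries to 1.71% and 1.60%. In bulk RNA, fewer cells that express a gene and less RNA per cell cannot be told apart.

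By isoform type, 8 of 10 muscle-type genes were downregulated DEGs, with a median log2 fold change of -1.51. Among the 8 mixed genes 4 were downregulated DEGs (median -0.60), among the 16 non-muscle genes 4 (median -0.44), and among the 13 general genes 1 (median -0.31). The non-muscle genes moved less but widely, since 14 of the 16 passed lower. Their count of DEGs depends on the threshold, since ACTN1 (-0.49), ACTB (-0.48), FLNA (-0.47) and MYL6 (-0.47) lay just short of it. The muscle-type genes summed to 270 and 276 FPKM in the small libraries and 103 and 93.3 FPKM in the crowded libraries. The non-muscle genes, which make up most of the actin cytoskeleton RNA, summed to 6090 and 5930 FPKM and then 4920 and 4450 FPKM.

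**Figure D1:**
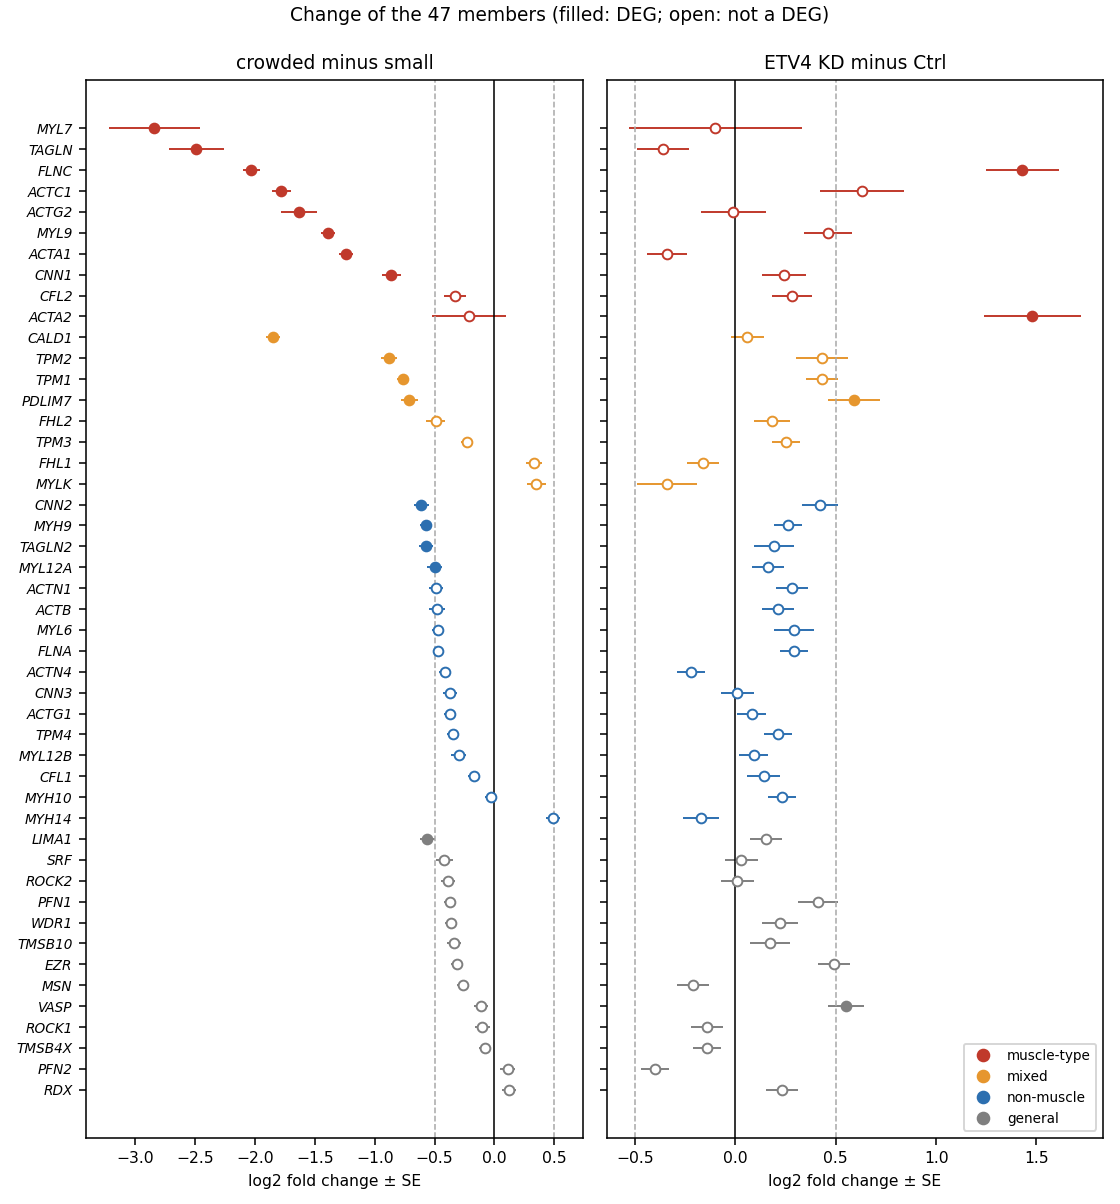
Log2 fold change (x axis, ± SE of the edgeR fit) of each of the 47 members in crowded against small hESCs (left) and in ETV4 KD against Ctrl hESCs (right), coloured by isoform type; filled points are DEGs and dashed lines mark 0.5 in either direction. In crowded hESCs the muscle-type genes reach -2.84 (MYL7), whereas most non-muscle and general genes lie between -0.61 and 0; the axes of the panels differ in range.

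SRF, the transcription factor among the members, fell modestly in crowded hESCs. Its FPKM was 21.1 and 20.4 in the small libraries and 17.4 and 14.8 in the crowded libraries (20.8 ± 0.531 against 16.1 ± 1.88, mean ± SD, n = 2), a log2 fold change of -0.42 ± 0.07 (adjusted p = 1.39e-04). The crowded libraries were both below the small ones, yet the change was short of the DEG threshold. With 1 library left out, the log2 fold change of SRF ranged from -0.54 to -0.29.

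Among the 6 actins, the striated and enteric muscle isoforms fell by far more than the cytoplasmic ones. ACTC1, cardiac alpha-actin (GRCh37 chromosome 15, 35082308 to 35087790), went from 32.1 and 33.3 FPKM to 10.8 and 9 FPKM, 29.1% of its level in small hESCs (log2 fold change -1.78 ± 0.08, adjusted p = 4.22e-12). ACTA1, skeletal alpha-actin (chromosome 1, 229566112 to 229569851), went from 61.3 and 60.8 FPKM to 26.3 and 27.3 FPKM (-1.24 ± 0.06, adjusted p = 1.57e-12). In both genes the replicates lay close together and the groups far apart. ACTG2, enteric gamma-actin, went from 6.74 and 8.39 FPKM to 2.92 and 2.19 FPKM (-1.63 ± 0.15, adjusted p = 1.35e-07). ACTA2, smooth muscle alpha-actin, was near the detection floor at 0.412 and 0.543 FPKM against 0.357 and 0.438 FPKM, with 40 to 59 reads per library, and its groups overlapped (log2 fold change -0.21 ± 0.31, adjusted p = 0.618). ACTB, beta-actin, was the most abundant member at 2270 and 2190 FPKM in small and 1790 and 1540 FPKM in crowded hESCs (-0.48 ± 0.07, adjusted p = 4.67e-04). ACTG1, cytoplasmic gamma-actin, went from 1270 and 1240 FPKM to 1070 and 956 FPKM (-0.37 ± 0.05, adjusted p = 1.28e-05). Actin genes are near-identical in coding sequence and have many pseudogenes, so the division of reads among them is uncertain.

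**Figure D2:**
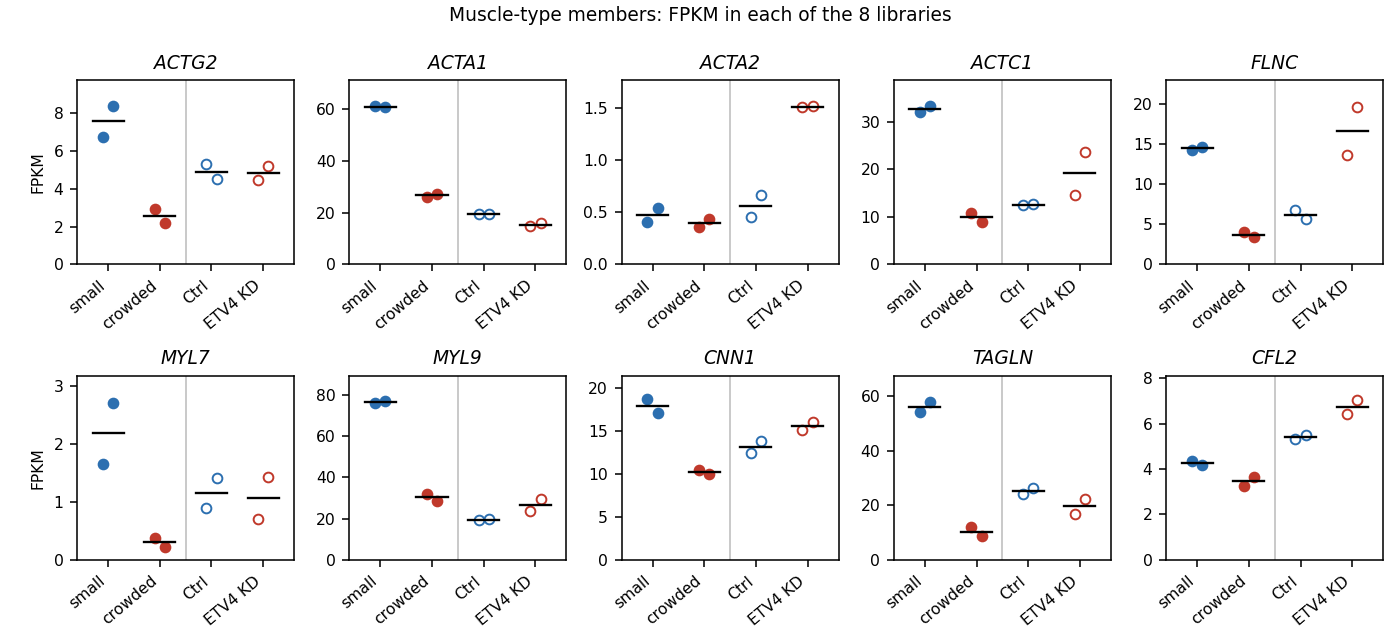
FPKM (y axis, linear, from 0) of the 10 muscle-type members in each of the 8 libraries, with the crowding experiment to the left of the grey line (filled) and the ETV4 KD experiment to the right (open); short lines are means of 2 libraries. FLNC stands at 14.3 and 14.7 in small, 4.00 and 3.38 in crowded, 6.79 and 5.63 in Ctrl and 13.7 and 19.7 in ETV4 KD libraries.

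The calponins, the transgelins and caldesmon, grouped here as proteins that bind actin filaments, had 5 downregulated DEGs among 6 members. The other, CNN3 (-0.37), passed lower. TAGLN (transgelin, SM22) went from 54.4 and 57.9 FPKM to 12.1 and 8.68 FPKM, 17.8% of its level in small hESCs (-2.49 ± 0.23, adjusted p = 0.00987). The crowded libraries of TAGLN were far below the small ones, but its call was lost when small replicate 1 was left out (adjusted p = 0.0599), at a log2 fold change of -2.53. TAGLN shares 38.1% of its exonic bases with a GENCODE gene that has no symbol on the same strand, so its counts are uncertain. CALD1, caldesmon (chromosome 7, 134429003 to 134655480), went from 92.7 and 93.2 FPKM to 28.6 and 25.4 FPKM (-1.85 ± 0.06, adjusted p = 3.21e-14). CNN1, the smooth muscle calponin, went from 18.7 and 17.1 FPKM to 10.5 and 9.97 FPKM (-0.86 ± 0.08, adjusted p = 5.98e-08). All of these were lower in each crowded library than in each small library. The broadly expressed calponin and transgelin moved less. CNN2, the most abundant of the 6 genes, went from 255 and 244 FPKM to 182 and 158 FPKM (-0.61 ± 0.06). TAGLN2 went from 53.1 and 55.3 FPKM to 39.6 and 36.2 FPKM (-0.57 ± 0.06).

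The filament crosslinkers, which bundle actin or tie it to adhesions, all passed lower (4 of 4). FLNC, the filamin of striated muscle (chromosome 7, 128470460 to 128499328), went from 14.3 and 14.7 FPKM to 4.00 and 3.38 FPKM, 24.5% of its level in small hESCs (-2.03 ± 0.07, adjusted p = 5.23e-13). FLNA, the abundant filamin, went from 232 and 229 FPKM to 179 and 167 FPKM (-0.47 ± 0.04, adjusted p = 5.89e-08). Within the filamins the muscle isoform thus had the larger fold change and the smaller level. Of the alpha-actinins, ACTN1 went from 92.4 and 95.1 FPKM to 73.4 and 66.1 FPKM (-0.49 ± 0.06), just short of the DEG threshold, and ACTN4 also passed lower (-0.41 ± 0.05).

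The myosin heavy chains did not move together. MYH9, the heavy chain of non-muscle myosin IIA, went from 89.4 and 88.5 FPKM to 64.1 and 60.9 FPKM (-0.57 ± 0.05, adjusted p = 1.77e-08). MYH10, the IIB chain, stood at 72.0 and 69.5 FPKM in small and 71.6 and 72.5 FPKM in crowded hESCs, where the groups overlapped (-0.03 ± 0.05, adjusted p = 0.641); its sign turned under other scalings. MYH14, the IIC chain, rose from 5.57 and 5.64 FPKM to 8 and 8.42 FPKM (0.49 ± 0.06, adjusted p = 3.18e-06), just short of the DEG threshold. It became an upregulated DEG with library totals (0.54), with at least 10 counts in every library (0.50), in limma fits at pseudocounts of 0.5 and 0.1 (0.51 and 0.54), and without small replicate 2 (0.50) or crowded replicate 1 (0.53). In crowded hESCs MYH10 was thus at 72.1 FPKM and MYH9 at 62.5 FPKM on average, whereas in small hESCs MYH9 stood above MYH10 in both libraries.

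All 5 myosin light chains among the members passed lower. MYL6B, a light chain outside the list, stood at 61.9 and 61.7 FPKM in small and 70 and 65.9 FPKM in crowded hESCs. It did not pass (0.07 ± 0.06, adjusted p = 0.36). MYL9, the smooth muscle type regulatory chain, went from 76.0 and 76.8 FPKM to 32.1 and 28.5 FPKM (-1.39 ± 0.06, adjusted p = 1.43e-12). MYL7, the atrial regulatory chain, went from 1.66 and 2.72 FPKM to 0.375 and 0.229 FPKM (-2.84 ± 0.38, adjusted p = 5.31e-06), and rests on 59 and 115 reads against 15 and 11. MYL9 was a fall on at least 5605 reads per library and MYL7 a fall near the floor. MYL12A, a non-muscle regulatory chain, went from 93.2 and 92.6 FPKM to 67.6 and 68.9 FPKM (-0.50 ± 0.06, adjusted p = 5.86e-07), just past the threshold. It lay short of the threshold in each of the limma fits (-0.44), with library totals (-0.45), with either other filter on low counts (-0.50), and without small replicate 1 (-0.49) or crowded replicate 1 (-0.50). MYL6, the most abundant chain, went from 647 and 619 FPKM to 485 and 462 FPKM (-0.47 ± 0.05), and MYL12B had a log2 fold change of -0.30 ± 0.06.

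The kinases that act on the light chains were low in level and divided. MYLK, myosin light chain kinase, rose from 2.34 and 2.17 FPKM to 2.79 and 3.19 FPKM (0.35 ± 0.08, adjusted p = 0.00163). ROCK2 fell (-0.39 ± 0.06, adjusted p = 2.58e-05). ROCK1, the most abundant of the kinases here, stood at 10.3 and 10.7 FPKM against 10.1 and 10.3 FPKM (-0.10 ± 0.06, adjusted p = 0.171).

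Tropomyosins, which coat actin filaments, all passed lower. TPM1 went from 278 and 267 FPKM to 168 and 158 FPKM (-0.76 ± 0.05, adjusted p = 7.93e-10), and TPM2 from 150 and 149 FPKM to 91.7 and 75.7 FPKM (-0.88 ± 0.07, adjusted p = 1.50e-07). TPM3 (-0.23 ± 0.05) and TPM4 (-0.35 ± 0.05) passed lower without being DEGs. TPM1, TPM2 and TPM3 give muscle and non-muscle isoforms from 1 gene, and counts per gene do not separate them.

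Genes of actin turnover changed little. PFN1 (profilin), the most abundant of them by mean level, went from 1100 and 1130 FPKM to 943 and 845 FPKM (-0.37 ± 0.05, adjusted p = 1.54e-05). Of the 8 genes 5 passed lower and 0 were DEGs: besides PFN1 these were CFL1 (-0.17), CFL2 (-0.33), TMSB10 (-0.34) and WDR1 (-0.36). CFL2, the muscle cofilin, was the muscle-type gene that passed with the smallest change, at 4.37 and 4.19 FPKM against 3.27 and 3.66 FPKM. TMSB4X (-0.08), VASP (-0.11) and PFN2 (0.11) did not pass.

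Among LIM-domain proteins of the cytoskeleton, PDLIM7 went from 41.2 and 44 FPKM to 30.2 and 25.1 FPKM (-0.71 ± 0.07, adjusted p = 3.68e-07) and LIMA1 (EPLIN), which stabilises filaments, from 15.5 and 16.0 FPKM to 11 and 11.1 FPKM (-0.56 ± 0.06, adjusted p = 4.60e-07). LIMA1 fell short of the DEG threshold in limma fits at pseudocounts of 0.5 (-0.50) and 1 (-0.48). FHL2 passed lower just short of the DEG threshold, from 5.74 and 5.82 FPKM to 4.42 and 4.16 FPKM (-0.49 ± 0.08), and FHL1 rose from 15.5 and 15.9 FPKM to 21.7 and 19.7 FPKM (0.33 ± 0.07, adjusted p = 5.17e-04). Of the proteins that link actin to the membrane, EZR (-0.31) and MSN (-0.26) fell and RDX (0.12 ± 0.06) did not pass. EZR, the most abundant linker, was at 157 FPKM in both small libraries and 137 and 128 FPKM in the crowded libraries.

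**Figure D3:**
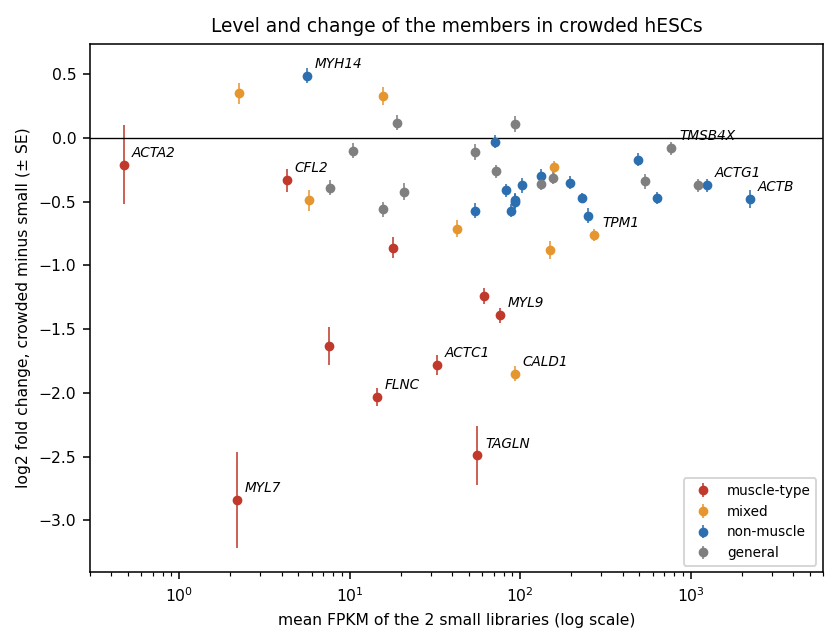
Mean FPKM of each member in the small libraries (x axis, log scale) against its log2 fold change in crowded hESCs (y axis, ± SE), coloured by isoform type. The genes below -1 are MYL7, TAGLN, FLNC, CALD1, ACTC1, ACTG2, MYL9 and ACTA1, with small-library means of 2.19 to 92.9 FPKM, and the members above 300 FPKM lie between -0.48 and -0.08.

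Other genes of the pathway moved less evenly. Of the SRF cofactors, MYOCD (myocardin) fell from 0.826 and 0.892 FPKM to 0.158 and 0.153 FPKM (-2.51 ± 0.17, adjusted p = 6.20e-10), whereas MRTFA (0.01 ± 0.08) and MRTFB (0.16 ± 0.07), both at higher levels, did not pass. Of 11 genes of Arp2/3, which builds branched actin, and capping protein, 6 passed lower and 0 were DEGs. Of 22 other actin and myosin genes tested, 7 passed lower and 5 higher. Among all genes tested, 20.3% passed lower and 19.4% higher, with 5.47% downregulated and 10.7% upregulated DEGs. CSRP1, an LIM protein, was a downregulated DEG (-1.05 ± 0.09). ACTN3 (1.51 ± 0.07), LMOD1 (1.29 ± 0.38, at means below 1 FPKM), MYO6 (0.54 ± 0.06) and PDLIM1 (0.54 ± 0.06) were upregulated DEGs. The actinin of fast muscle thus rose while most muscle-type members fell.

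Markers of other cell types were measured beside the muscle-type falls. Of the 8 striated muscle markers tested, 3 were downregulated DEGs (TNNT2, -1.73 ± 0.19; RYR2, -0.89 ± 0.09; TTN, -0.85 ± 0.07), 1 was an upregulated DEG (TNNI3, 0.87 ± 0.11) and 4 did not pass; TNNT2, cardiac troponin T, went from 4.75 and 4.50 FPKM to 1.68 and 1.2 FPKM. Their summed level was 19.7 FPKM in both small libraries and 22.4 and 24.3 FPKM in the crowded libraries, where TNNI3 alone went from 7.98 and 8.97 FPKM to 15.4 and 16.9 FPKM. Their share of all counts moved the other way, from 0.0135% in both small libraries to 0.00865% and 0.00984%. MYH6, a cardiac heavy chain, was at most 0.0239 FPKM. Of 10 smooth muscle and fibroblast markers tested, 4 were downregulated DEGs (MYOCD, PDGFRB, THY1 and POSTN) and 1 was an upregulated DEG (LMOD1), with sums of 123 and 125 FPKM against 89.2 and 90.1 FPKM. MYH11, the defining heavy chain of smooth muscle, was at most 0.199 FPKM. The part of such cells in the falls of the muscle-type genes was not tested.

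In ETV4 KD hESCs fewer of these genes passed, and most of those were higher. Of the 47 members, 14 passed higher, against 10.6% of all genes tested, and 2 passed lower, against 10.9%. Upregulated DEGs numbered 4 (8.51% of the members; 5.88% of all genes tested) and downregulated DEGs numbered 0 (7.1% of all genes tested). The median log2 fold change was 0.19, with 12 of 47 below 0, and that of all genes was 0.00. The median was 0.26 for muscle-type, 0.22 for mixed, 0.20 for non-muscle and 0.15 for general genes. The share of the members in all counts was 1.96% and 2.00% in Ctrl and 2.09% and 2.28% in ETV4 KD hESCs. The ETV4 KD replicates differed: of the 35 members with a positive log2 fold change, 29 were higher in replicate 2 than in replicate 1. Without ETV4 KD replicate 1, 11 members were upregulated DEGs, 1 was a downregulated DEG and 25 passed higher. Without ETV4 KD replicate 2, 2 were upregulated DEGs, 1 was a downregulated DEG and 13 passed higher. Without Ctrl replicate 1, 9 passed higher. The number that passed lower, 2 in the full fit, was 1 with either Ctrl library left out and 4 with either ETV4 KD library left out.

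The 4 upregulated DEGs were FLNC, ACTA2, VASP and PDLIM7. FLNC rose from 6.79 and 5.63 FPKM to 13.7 and 19.7 FPKM (6.21 ± 0.826 against 16.7 ± 4.25, mean ± SD, n = 2; log2 fold change 1.43 ± 0.18, adjusted p = 0.00251). ACTA2 rose from 0.459 and 0.667 FPKM, on 51 and 63 reads, to 1.51 and 1.52 FPKM, on 158 reads in each library (1.48 ± 0.24, adjusted p = 0.00588). The groups were well apart in both genes, with ACTA2 still low in level. ACTA2 shares 29.1% of its exonic bases with its antisense gene, and the strand setting of the counting is not given. VASP, which promotes filament elongation, rose from 47.3 and 47.9 FPKM to 65.2 and 73.0 FPKM (0.55 ± 0.09, adjusted p = 0.00567). PDLIM7 rose from 17.5 and 19.0 FPKM to 24.0 and 28.7 FPKM (0.59 ± 0.13, adjusted p = 0.0164). Without ETV4 KD replicate 2, VASP (0.43) and PDLIM7 (0.40) were below the DEG threshold.

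The other muscle-type genes varied in ETV4 KD hESCs. MYL9 rose from 19.4 and 19.6 FPKM to 23.7 and 29.6 FPKM (0.46 ± 0.12, adjusted p = 0.0311), short of the DEG threshold. ACTC1 was at 12.4 and 12.6 FPKM in Ctrl and 14.6 and 23.7 FPKM in ETV4 KD hESCs (0.63 ± 0.21, adjusted p = 0.0645), where the replicates stood further apart than replicate 1 stood from Ctrl. ACTA1 fell from 19.4 and 19.5 FPKM to 14.8 and 15.9 FPKM (-0.34 ± 0.10, adjusted p = 0.0416). TAGLN was at 24.1 and 26.4 FPKM against 17.0 and 22.2 FPKM (-0.36 ± 0.13, adjusted p = 0.0933), and became a downregulated DEG without ETV4 KD replicate 2 (-0.60, adjusted p = 0.00107). CNN1 (12.4 and 13.8 against 15.1 and 16.0 FPKM) and CFL2 (5.34 and 5.49 against 6.42 and 7.05 FPKM) did not pass, nor did ACTG2 (5.30 and 4.53 against 4.49 and 5.20 FPKM) or MYL7 (0.890 and 1.42 against 0.709 and 1.44 FPKM). Of the muscle-type genes, 3 thus passed higher and 1 lower.

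Among the remaining members, non-muscle genes that passed higher were ACTN1 (0.28), FLNA (0.29), MYH9 (0.26) and CNN2 (0.42). MYH9 went from 70.9 and 70.0 FPKM to 83.9 FPKM in both ETV4 KD libraries, with little spread. CNN2 went from 218 and 224 FPKM to 277 and 310 FPKM (adjusted p = 0.0127), and FLNA from 169 and 168 FPKM to 203 and 207 FPKM (adjusted p = 0.0213). The tropomyosins TPM1 (0.43), TPM2 (0.43) and TPM3 (0.25) passed higher, as did PFN1 (0.41) and EZR (0.49), the linker just short of the DEG threshold. EZR stood at 114 and 115 FPKM in Ctrl and 154 and 166 FPKM in ETV4 KD hESCs (adjusted p = 0.00531). TPM1 stood at 173 and 181 FPKM in Ctrl and 225 and 253 FPKM in ETV4 KD hESCs. TMSB4X, the actin monomer-binding thymosin, was at 1160 and 1230 FPKM against 1050 and 1100 FPKM and did not pass (-0.14 ± 0.07), nor did MYL6, at 525 and 575 FPKM against 617 and 723 FPKM (0.29 ± 0.10). PFN2, the profilin abundant in neurons, fell from 144 and 146 FPKM to 112 and 104 FPKM (-0.40 ± 0.07, adjusted p = 0.00704). SRF was at 18.4 and 19.0 FPKM against 18.7 and 19.3 FPKM (0.03 ± 0.08, adjusted p = 0.800), and ACTB at 2260 and 2350 FPKM against 2550 and 2760 FPKM (0.21 ± 0.08, adjusted p = 0.0887). CALD1, which fell in crowded hESCs, was at 56.0 and 57.8 FPKM against 57.5 and 60.7 FPKM (0.06 ± 0.08). ROCK1 was at 11 and 10.4 FPKM against 10.3 and 9.11 FPKM (-0.14 ± 0.08, adjusted p = 0.253) and FHL1 at 31.2 and 32.8 FPKM against 29.8 and 27.2 FPKM (-0.16 ± 0.08, adjusted p = 0.175). The others did not pass either. Of these, values above 0 were those of ACTG1 (0.08), MYH10 (0.23), MYL12A (0.16), MYL12B (0.09), ROCK2 (0.01), TPM4 (0.21), CNN3 (0.01), TAGLN2 (0.19), CFL1 (0.14), TMSB10 (0.17), WDR1 (0.22), LIMA1 (0.15), FHL2 (0.18) and RDX (0.23). Those of ACTN4 (-0.22), MYH14 (-0.17), MYLK (-0.34) and MSN (-0.21) lay below 0.

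Elsewhere in the pathway, 3 of 3 SRF cofactors and 11 of 11 Arp2/3 and capping genes did not pass in ETV4 KD hESCs. Most genes did not pass there, 14032 of the 17879 tested. Of 22 other actin and myosin genes, PDLIM5 was a downregulated DEG, from 11.2 and 10.3 FPKM to 5.37 and 3.99 FPKM (-1.2 ± 0.12, adjusted p = 9.56e-04), and ACTN3 an upregulated one (0.56 ± 0.10). MYOCD was at 0.735 and 0.723 FPKM against 0.760 and 0.729 FPKM. The smooth muscle and fibroblast markers summed to 161 and 164 FPKM in Ctrl and 133 and 123 FPKM in ETV4 KD hESCs, with 2 downregulated DEGs (PDGFRB and THY1) and 1 upregulated (COL1A1, 1.00 ± 0.07). The striated muscle markers summed to 20 and 20.6 FPKM against 22.2 and 17.7 FPKM, with 1 DEG in each direction (MYH3 higher, TTN lower) of 10 tested. Their part in the rises of FLNC and ACTA2 was not tested.

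The responses to crowding and to ETV4 KD were compared gene by gene in 1 fit of all 8 libraries, as the crowding log2 fold change minus the ETV4 KD log2 fold change, over 17790 genes. Of the 47 members, 30 (63.8%) had a lower value under crowding at the DEG thresholds, against 12.5% of all genes tested, and 2 (MYLK and MYH14) a higher one, against 15% of all genes. FLNC differed most, by -3.46 ± 0.27 (adjusted p = 9.00e-05), since it was a downregulated DEG in crowded and an upregulated DEG in ETV4 KD hESCs. PDLIM7 (-1.31 ± 0.16, adjusted p = 1.12e-04) was the other member that was a DEG in both, again in opposite directions. The differences for CALD1 (-1.91 ± 0.10, adjusted p = 4.42e-07), MYL9 (-1.85 ± 0.15, adjusted p = 4.50e-06), TAGLN (-2.14 ± 0.26, adjusted p = 5.84e-04) and ACTC1 (-2.41 ± 0.30, adjusted p = 4.63e-04) were also past the threshold. ACTA1, which fell in both experiments, fell by more under crowding (-0.92 ± 0.10, adjusted p = 5.80e-05). The 15 members not called were SRF, ACTG1, ACTN4, MYH10, MYL12B, ROCK1, ROCK2, TPM3, CNN3, CFL1, PFN2, TMSB4X, FHL1, MSN and RDX.

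**Figure D4:**
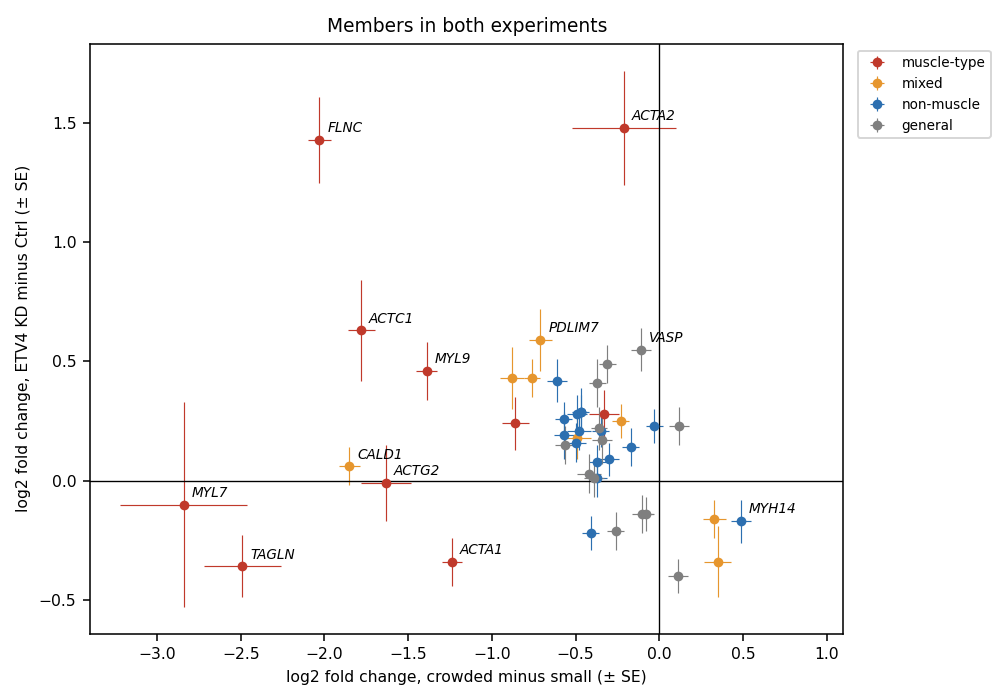
Log2 fold change of each member in crowded against small hESCs (x axis) and in ETV4 KD against Ctrl hESCs (y axis), with SE bars and colours by isoform type. FLNC (-2.03 and 1.43) and ACTC1 (-1.78 and 0.63) lie at the upper left, TAGLN (-2.49 and -0.36) and ACTA1 (-1.24 and -0.34) at the lower left, and ACTA2 (-0.21 and 1.48) at the top.

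The control levels of the muscle-type genes were unlike in the experiments. Their FPKM summed to 270 and 276 in the small libraries but to 107 and 110 in the Ctrl libraries, near the 103 and 93.3 of the crowded libraries. MYL9 stood at 76.0 and 76.8 FPKM in small and 19.4 and 19.6 FPKM in Ctrl hESCs, ACTA1 at 61.3 and 60.8 against 19.4 and 19.5 FPKM, and TAGLN at 54.4 and 57.9 against 24.1 and 26.4 FPKM. For the non-muscle genes the sums were 6090 and 5930 FPKM in small and 5900 and 6240 FPKM in Ctrl hESCs, which overlapped. The tables were normalized separately and the density of the Ctrl cultures is not given in the labels, so these levels are set side by side without a test.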

How the data were processed

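The authors prepared stranded poly-A libraries of H9 hESCs, used Trimmomatic on the paired reads, aligned to GRCh37 by HISAT2 2.1.0 and assembled known transcripts with StringTie 2.1.3b. They deposited 1 table per experiment with raw read counts per gene and FPKM values per gene and library, where FPKM scales by transcript length and mapped reads. The strand setting of the counting is not given in the sources used here. The 16 other per-sample columns and the authors' fold changes and p-values were not used. Genes listed have at least 1 read in every library.

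Groups came from the sample labels. Counts were tested within each table with edgeR 4.0.16 (R 4.3.3; genes kept by filterByExpr; TMM scaling; robust quasi-likelihood), adjusted by Benjamini-Hochberg over all genes tested. SE is the absolute log2 fold change over the square root of F. The difference between experiments was tested on the raw counts of all 8 libraries. Totals of 50359703 to 62410168 counts keep counting error small except for ACTA2 and MYL7. Replicates were distinct libraries by a chi-square test of their counts (5.68 to 22.7 for each degree of freedom), and the biological coefficient of variation was 6.83% (crowding) and 9.93% (ETV4 KD).

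The members, isoform types and lists were chosen with earlier results of these data known, so no set test was made. All 47 members are accounted for; library values are given for DEGs, muscle-type genes, SRF, the most abundant member of each role and members near a threshold. From each other list, DEGs are named, at most 4 by size (MYO6 and PDLIM1 tied for the fourth place). The results of 1 list are not reported here. Gene positions are from GENCODE v44 lifted to GRCh37 and promoter sequences from RefSeq (GRCh38.p14). Exons of 27 members share bases with another GENCODE gene, 23 of them on the opposite strand. Alternatives tried were DESeq2 1.42.0 (size factors and Wald test), library totals, no filter, at least 10 counts in every library, limma 3.58.1 on log2(FPKM + 0.5) with pseudocounts of 0.1 and 1 and with all genes, a threshold of 1, the replicate number as a block, and each library left out.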

Additional observations from a re-analysis of the deposited data

How the results depend on the processing

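With 2 libraries a group, the spread between replicates limits precision. Crowding: 8 members were DEGs at an absolute log2 fold change over 1, and 15 to 23 when 1 library was left out; 5 members passed higher with library totals and 34 to 37 passed lower without 1 library. The crowding median of -0.41 was -0.37 with library totals, -0.36, -0.36 and -0.35 with limma at pseudocounts of 0.5, 0.1 and 1, -0.35 with all genes, and -0.46 to -0.37 without 1 library. ETV4 KD: 2 members were DEGs at a threshold of 1, and 3 to 12 without 1 library (12 without ETV4 KD replicate 1, 3 without ETV4 KD replicate 2); 8 passed higher with limma on all genes, 1 passed lower with no filter, 9 to 25 passed higher and 1 to 4 lower without 1 library, and the median was 0.12 to 0.26. The difference between the responses was called for 29 to 37 members without 1 library, and 32 in full. A promoter CArG box was found in 20 members with 1 mismatch in the core (46.5%; 9.88% of all genes). Deviations of libraries with the same replicate number were nearly uncorrelated (-0.041 in crowding and 0.086 in ETV4 KD). With 1 value per experiment, this cannot exclude pairing. With the replicate block, 25 members passed higher and 9 lower in ETV4 KD. FLNC lost its call there (log2 fold change 1.41, adjusted p = 0.257), leaving 3 DEGs, while crowding kept 17. DESeq2's Wald test also called ACTC1 in ETV4 KD (adjusted p = 0.00683). With 1 library left out, the log2 fold change of ACTC1 there ranged from 0.2 to 0.96. Signs turned near 0: MYH10 in crowding (0.02 with library totals, 0.03 in each limma fit), and in ETV4 KD, SRF (-0.01 with library totals, -0.02 to 0.08 without 1 library), ROCK2 (-0.04 with library totals, -0.06 to 0.07 without 1 library), CNN3 (-0.03 with library totals, -0.06 to 0.08 without 1 library), CALD1 (-0.01 to 0.12), ACTG2 (-0.15 to 0.12) and MYL7 (-0.72 to 0.34) without 1 library. The cause was not tested.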
